A study of Mus musculus with 6 samples.

Results

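The Myb family of the mouse holds 3 genes, Myb, Mybl1 and Mybl2, and the chromatin around them was examined in granulocyte-monocyte progenitors with normal or low GFI1. Peaks were taken as belonging to the family when they overlapped the body of one of these genes, or lay within 50 kb with it as the nearest protein-coding gene. Of 182166 consensus peaks 56 did so, 43 for Myb, 10 for Mybl2 and 3 for Mybl1. Of these, 53 reached a mean of 10 normalized reads and were tested, and the others, a pair at Myb and 1 at Mybl2, had means between 3.37 and 9.41.

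The proteins of this family bind DNA through MYB repeats and activate transcription. MYB (c-MYB) is needed for adult-type blood formation, is abundant in stem cells and early progenitors and is lost as cells mature. Part of its control in blood cells comes from enhancers in the long interval between it and its neighbour Hbs1l. MYBL2 (B-MYB) is found in most dividing cells, where it joins the MuvB complex and switches on mitotic genes with FOXM1. MYBL1 (A-MYB) is known mainly for male germ cells and for some B cells.

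The assay was ATAC-seq, which reads open DNA from the places where a transposase can insert adapters. The progenitors had been sorted by flow cytometry out of bone marrow, and all mice were C57BL/6 and untreated. GFI1 represses transcription in blood progenitors. In GFI1-KI mice (GFI1 KI/KI) the human GFI1 gene replaced the mouse gene, and in GFI1-KD mice (GFI1 KD/KD) human GFI1 was expressed at 10-20% in its place, so both groups carried human GFI1 and no group with the mouse gene was analysed here. Each genotype had 3 libraries (KI1, KI2, KI3 and KD1, KD2, KD3). Neither age and sex nor the use of a separate animal for each library is given in the sources used here. The spread that the p-values rest on may be partly technical.

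Reads in peaks numbered 19408373, 24365743 and 27741446 in KI1, KI2 and KI3, and 19857646, 16022763 and 19151059 in KD1, KD2 and KD3. KI2 and KI3 were thus deeper than every GFI1-KD library, while KI1 lay within the GFI1-KD range. The part of depth in the differences and calls below was not tested. On the first principal component of all tested peaks KI1 was the GFI1-KI library closest to GFI1-KD (-47.9, against -111.3 and -106.7 for KI2 and KI3 and 79.6 to 99.3 for GFI1-KD). KI2 and KD1 held at most 1 read on chromosome Y, against 499 to 865 in the others. The libraries of a genotype thus differed in sex and were not all from the same animals. The labelled cell type was checked on the strongest peak within 1 kb of a gene end. Of 11 markers of granulocyte-monocyte progenitors 10 had such a peak, and Fcgr3 had none. Their levels in GFI1-KI ran from 244 (Prtn3) and 264 (Csf3r) normalized reads to 1755 (Cebpa), with Mpo at 1370. The T cell markers summed to 1150 to 1154 in GFI1-KI against 921 to 1093 in GFI1-KD. Most of that sum came from Cd3d, at 928 in GFI1-KI, while Cd3e was at 32.8 and Cd3g had no gene-end peak. Of all 170733 tested peaks 10.5% differed between the genotypes in limma's moderated test at an adjusted p under 0.05, 4.99% higher and 5.48% lower in GFI1-KD.

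Across the family 5 of 53 tested peaks were called (9.43%, against 10.5% of all tested peaks), 1 higher and 4 lower in GFI1-KD. The share was near that of all peaks. Of the lower peaks 3 lay in the flanks of Myb and 1 was the Mybl1 promoter peak, and the higher peak lay inside Mybl2. With median-of-ratios scaling limma called 3 higher and 3 lower, against 6.82% and 4.61% of all tested peaks. On recovered reads edgeR called 3 higher and 2 lower, against 7.36% and 5.25%. DESeq2 called 0 (6 at an unadjusted p under 0.05, against 8 in limma, where 25.5% of all tested peaks were under it). Of the peaks DESeq2 adjusted, 7.3% were called, 4.86% higher and 2.44% lower. Without KI1 limma called these 5 and a further pair at Myb, 7 in all. It called 0 without KI2 or without KI3, 2 without KD1 and 1 without KD2 or without KD3. The genotypes did not overlap in 13 of the 53 peaks, 5 higher and 8 lower, against 11.4% and 17.4% of all tested peaks (28.8% together). The median log2 fold change was -0.11, beside -0.05 for all tested peaks.

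**Figure D1:**
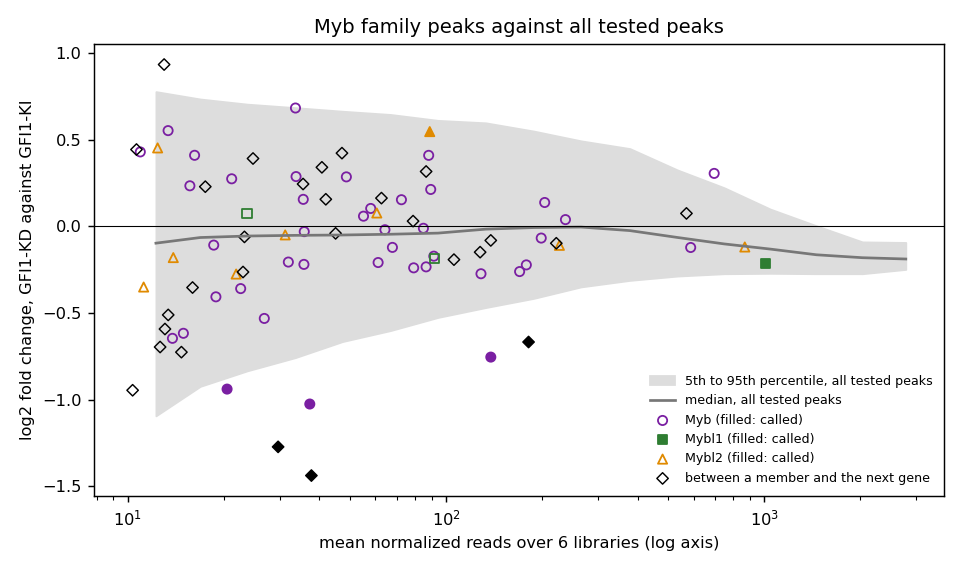
Each symbol is 1 tested peak, with its mean over the 6 libraries on a log axis against its log2 fold change (GFI1-KD over GFI1-KI). The grey band holds 90% of all tested peaks at that mean, filled symbols were called by limma, and most family peaks lie inside the band. Below it lie the 3 lower Myb peaks and 3 peaks further upstream of Myb. Above it lie the strongest Myb peak and a weak peak between Mybl1 and its next gene Vxn (log2 fold change 0.93), neither of them called.

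The promoters of the 3 genes were open in every library. Per kb of peak, the promoter peak of Mybl1 held 1088 ± 13.0 normalized reads in GFI1-KI (SD, n = 3), that of Mybl2 1037 ± 20.2 and that of Myb 674 ± 44.0. In GFI1-KD the levels were 938 ± 51.7, 956 ± 62.3 and 618 ± 29.1. Myb thus had the lowest of the 3 in both genotypes, while Mybl1 and Mybl2 lay within their spread of each other in GFI1-KD. Among the strongest gene-end peaks of 15010 genes, Myb stood at the 53rd percentile per kb, Mybl2 at the 75.8th and Mybl1 at the 76.6th.

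The Myb promoter peak, on chromosome 10 from 21160595 to 21161503 (mm10), spans the RefSeq start site at 21160984 on the minus strand. It held 653.0, 610.9 and 573.2 normalized reads in KI1, KI2 and KI3, and 573.5, 531.9 and 581.0 in KD1, KD2 and KD3. The ranges overlapped and the peak was not called (log2 fold change -0.12 ± 0.08 SE, limma adjusted p = 0.365). A weaker peak beside it, 0.53 kb outside the gene, gave -0.17 ± 0.15 (limma adjusted p = 0.514).

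The Mybl2 promoter peak, on chromosome 2 from 163054334 to 163055205, spans the start site at 163054635 on the plus strand. Its values were 910.9, 917.7 and 884.3 in GFI1-KI and 850.6, 772.6 and 877.0 in GFI1-KD. All GFI1-KD libraries lay below all GFI1-KI libraries, KD3 by a small margin, and the peak was not called (-0.12 ± 0.07, limma adjusted p = 0.297). Such a separation was common, as 6691 of 27098 tested gene-end peaks were lower in GFI1-KD without overlap.

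The sequence of the Myb promoter is shown because it lies under the second strongest peak of that gene, and a segment at the start of Mybl2 because it carries the same E2F-type octamer. E2F factors drive genes of the G1 to S transition. The 250 bases upstream of the Myb start site, chr10:21160985-21161234 (GRCm38.p6, minus strand, from RefSeq), hold 81.2% G and C, with TTGGCGGG in capitals:
Myb: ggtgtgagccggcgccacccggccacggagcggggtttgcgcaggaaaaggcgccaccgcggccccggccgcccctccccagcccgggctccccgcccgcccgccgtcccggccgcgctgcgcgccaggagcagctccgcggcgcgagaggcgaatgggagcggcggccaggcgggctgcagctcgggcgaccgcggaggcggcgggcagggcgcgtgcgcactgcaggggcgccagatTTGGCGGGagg
The matching segment of Mybl2, with the octamer from chr2:163054620-163054627 on the plus strand, reads:
Mybl2: gccgacgcacTTGGCGGGagataggaaa
The octamer begins 11 bases before the Myb start site and 15 bases before that of Mybl2. It was chosen after the sequences were seen, and stands, on either strand, in 0.974% of 32851 mouse promoter windows of the same length. The MYB core AACNG (reverse CNGTT) was found 1 time in the 300-base window of Myb and 3 times in that of Mybl2, and 80.3% of all windows hold it. The letters AAATCA (reverse TGATTT), a core of GFI1 sites, and TTTGAA (reverse TTCAAA), the CHR element of mitotic genes, were in neither window, and 14% and 17.9% of windows hold them. No match overlapped one of another motif. A match is a description of letters and not a measured binding site. Mybl1 had no entry in the promoter table.

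The Mybl1 promoter peak, on chromosome 1 from 9699908 to 9700902, overlaps the end of the gene at 9700439. Its level was 1074, 1076 and 1097 normalized reads in KI1, KI2 and KI3, and 952.3, 875.0 and 972.4 in KD1, KD2 and KD3. Every GFI1-KD library was below every GFI1-KI library. On the log2 scale it fell by 0.21 ± 0.07 (limma adjusted p = 0.037), the smallest change among the 5 called family peaks. Over all gene-end peaks the median was -0.10 and 7.11% were called lower. Strong peaks were shifted further: among all tested peaks of similar mean the median was -0.13 and the 5th percentile -0.27, so this peak lay inside that range. The call was lost with median-of-ratios scaling (limma adjusted p = 0.0746), in edgeR (0.0723) and in DESeq2 (0.175). Leaving out KI2 also ended it (limma adjusted p = 0.138), as did leaving out KI3 (0.176), KD2 (0.0811) or KD3 (0.0603). The other Mybl1 peaks, 0.57 and 2.73 kb outside the gene, gave 0.08 ± 0.25 and -0.19 ± 0.16 and were not called. No peak lay further inside the gene body.

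**Figure D2:**
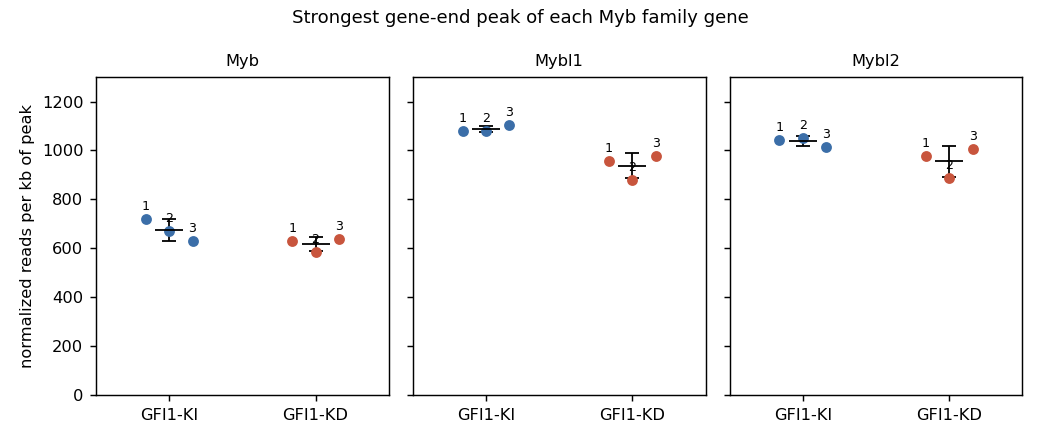
Normalized reads per kb of the strongest gene-end peak of each gene, with 1 point per library (numbers are replicate numbers) and the mean ± SD of 3 libraries as black bars. The vertical axis starts at 0, the Mybl1 points of GFI1-KD lie from 879 to 977 below those of GFI1-KI from 1080 to 1103, and the Myb points overlap.

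Within the body of Myb, which runs on chromosome 10 from 21124930 to 21160984, there were 15 peaks and limma called 0 of them (1 at an unadjusted p under 0.05; edgeR called 1 and DESeq2 0). Exons, introns and untranslated parts were not told apart by the annotation used. The 15 peaks ran from 26.8 to 696 normalized reads, with log2 fold changes between -0.53 and 0.30 and a median of -0.02.

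The strongest of all 43 Myb peaks was not at the promoter but inside the gene, 14.4 kb downstream of the start site, from 21146215 to 21147037. It held 784.8, 537.3 and 557.3 normalized reads in KI1, KI2 and KI3, and 861.3, 689.9 and 746.2 in KD1, KD2 and KD3. KI1 lay inside the GFI1-KD range, and KI2 and KI3 lay below it. The difference of 0.30 ± 0.11 missed the threshold (limma adjusted p = 0.0797). It was called higher in GFI1-KD without KI1 (limma adjusted p = 0.00136), with median-of-ratios scaling (0.0307), with equal totals (0.0211) and in edgeR (0.0233), and not in DESeq2 (0.332). After it and the promoter peak, the strongest peaks of the body lay 7.16 and 29.7 kb downstream of the start and held 234 ± 16.5 and 204 ± 7.20 in GFI1-KI against 240 ± 8.95 and 195 ± 15.4 in GFI1-KD.

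Beyond the far end of Myb, an adjoining pair of peaks fell. The stronger, from 21123475 to 21124300, lies 0.63 kb outside the gene. It held 121.6, 171.8 and 222.8 normalized reads in KI1, KI2 and KI3, and 59.9, 135.8 and 117.5 in KD1, KD2 and KD3. KI1 lay below KD2, so the genotypes overlapped, and each genotype was widely spread. The change was -0.75 ± 0.23 (limma adjusted p = 0.036), and -0.40 without KD1, the lowest library. It was not called without KI2 (limma adjusted p = 0.106), KI3 (0.21), KD1 (0.171) or KD3 (0.0532), with equal totals (0.0521), with robust variance estimation (0.286) or in DESeq2 (0.426).

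The weaker of the pair, from 21123266 to 21123424, held 20.3, 26.3 and 35.5 normalized reads in GFI1-KI against 10.7, 13.6 and 16.6 in GFI1-KD. Here every GFI1-KD library was below every GFI1-KI library (-0.94 ± 0.29, limma adjusted p = 0.0417). It was no longer called without KI2 (limma adjusted p = 0.131), KI3 (0.263), KD1 (0.102) or KD2 (0.0807) and in DESeq2 (0.161). Lying side by side, the pair need not be separate sites. The other 6 tested peaks of this flank, out to 19.2 kb from the gene toward Ahi1, were not called.

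Upstream of the start site 18 family peaks lay outside the gene and within 50 kb, and 1 of them was called. That peak, 35.8 kb upstream from 21196691 to 21196931, held 42.8, 57.8 and 44.6 normalized reads in KI1, KI2 and KI3, and 46.0, 14.8 and 17.7 in KD1, KD2 and KD3. KD1 was at the level of GFI1-KI, and the other GFI1-KD libraries were far below it. The change was -1.02 ± 0.30 (limma adjusted p = 0.0305), and -1.51 without KD1 (limma adjusted p = 0.000396). Leaving out KI2 ended the call (limma adjusted p = 0.143), as did leaving out KI3 (0.0721), KD2 (0.164) or KD3 (0.135), and it was not called by edgeR (0.0542) or DESeq2 (0.159).

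The peak 12.0 kb upstream, from 21172859 to 21173121, had the largest positive difference of the family. It held 31.5, 21.9 and 23.4 normalized reads in GFI1-KI against 50.3, 35.8 and 38.8 in GFI1-KD, without overlap. The difference of 0.68 ± 0.23 had a limma adjusted p of 0.0591. It was called by edgeR (0.03) and, in limma, with median-of-ratios scaling (0.0388), with equal totals (0.0373) and without KI1 (0.0279). It was not called by DESeq2 (0.144), nor by limma without KI2 (limma adjusted p = 0.219), KI3 (0.191), KD1 (0.189), KD2 (0.0697) or KD3 (0.106). This peak was not in the rule for named peaks and was picked after its values were seen. The strongest upstream family peak, 31.6 kb from the start site, held 195 ± 25.4 in GFI1-KI against 214 ± 17.6 in GFI1-KD and was not called (0.14 ± 0.12). The outermost family peak, 47.0 kb from the gene, gave -0.11, and the first upstream peak beyond the 50 kb limit, 58.3 kb from the gene, gave -0.95 and was not called (limma adjusted p = 0.142).

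Myb and Hbs1l are 135 kb apart, so 15 further peaks of that interval lie outside the family rule. They were described as context. Of these 15 tested peaks 3 fell and 0 rose in GFI1-KD, against 5.48% lower among all tested peaks, and edgeR and DESeq2 each called 3 lower and 0 higher. None of the other intervals between a family gene and its next gene held a called peak (0 of 13 tested by limma, edgeR and DESeq2, with 1 at an unadjusted p under 0.05 in limma).

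The strongest of the 3, 67.8 kb upstream of the start site from 21228466 to 21229004, held 221.8, 204.2 and 242.4 normalized reads in KI1, KI2 and KI3, and 163.7, 125.9 and 131.9 in KD1, KD2 and KD3. The genotypes were well apart, with the highest GFI1-KD library below the lowest GFI1-KI library. On the log2 scale it fell by 0.67 ± 0.13 (limma adjusted p = 0.00233), and the value was -0.67 without KI1 (0.00334). Its nearest gene was Hbs1l, 67.0 kb away, by a small margin over Myb.

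The peak 60.6 kb upstream, from 21221313 to 21221859, held 33.8, 80.6 and 54.4 in GFI1-KI against 23.5, 18.5 and 15.5 in GFI1-KD. KI1 was the lowest GFI1-KI library, and the spread within GFI1-KI was over 2-fold. The peak fell by 1.44 ± 0.27 (limma adjusted p = 0.00168), the largest decrease among the tested family and interval peaks. Without KI1 the value was -1.75 (limma adjusted p = 0.000151), and without KI2, the highest library, -1.14 (0.0273).

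The peak 98.9 kb upstream, from 21259713 to 21259974, also lies nearer to Hbs1l, and here clearly so, 36.0 kb from it. It held 38.3, 43.8 and 44.6 in GFI1-KI against 18.2, 19.7 and 13.3 in GFI1-KD, with little spread in either genotype. Its decrease was -1.27 ± 0.24 (limma adjusted p = 0.00173), and -1.34 without KI1 (0.00262).

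Unlike the family peaks, these 3 were called without any 1 of the 6 libraries, under each scaling and in edgeR and DESeq2, with adjusted p between 0.000151 and 0.0273 over the alternatives that tested them. Between them stood peaks with other values. The peak 91.2 kb upstream, at 230 ± 21.1 in GFI1-KI and 214 ± 14.0 in GFI1-KD, and that 81.0 kb upstream, at 142 ± 2.70 and 134 ± 11.6, were stronger than the peaks at 60.6 and 98.9 kb and were not called. Weak peaks 61.1 and 74.5 kb upstream, with means of 13.1 and 14.7, were lower in every GFI1-KD library than in any GFI1-KI library and were not called (-0.59 ± 0.34 and -0.73 ± 0.31). The peak 63.5 kb upstream, the next but one to that which fell most, had a mean of 76.3 ± 20.8 in GFI1-KI against 96.8 ± 36.0 in GFI1-KD and was not called. In the bodies of the neighbours, 2 of 29 tested Ahi1 peaks and 1 of 12 tested Hbs1l peaks were called, all higher in GFI1-KD (4.99% of all tested peaks).

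**Figure D3:**
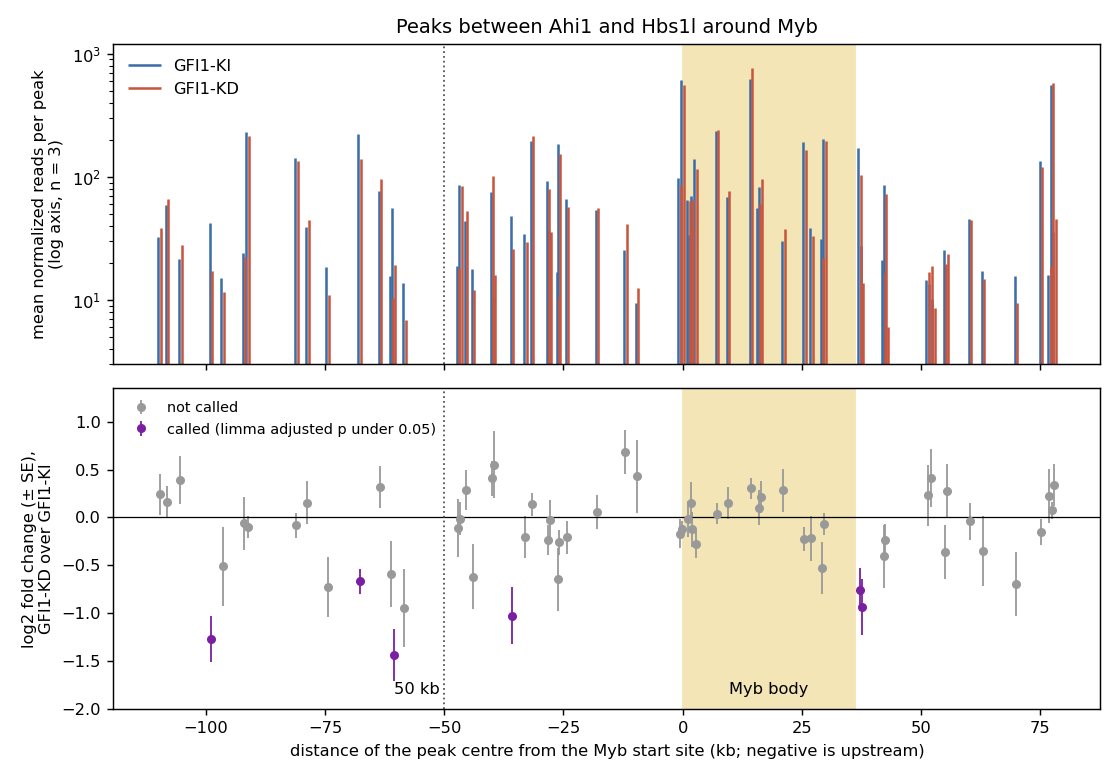
Every peak between Ahi1 and Hbs1l, placed by the distance of its centre from the Myb start site in kb, with the Myb body shaded and the 50 kb limit on the upstream side dotted. The upper panel gives the mean of 3 libraries per genotype on a log axis, the lower panel the log2 fold change ± SE, where the 3 called peaks left of the dotted line lie between -0.67 and -1.44 and no peak in the body is called.

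Markers of some other blood cells moved with genotype beside these Myb peaks, and those of B cells overlapped between the genotypes. Gene-end peaks as a class were shifted down as well. Among 27098 tested, 18289 had a negative log2 fold change, and the median was -0.10. Without overlap of the genotypes, 6691 were lower and 1522 higher in GFI1-KD. Whether any marker sum, that of T cells included, fell further than this general shift was not tested. Summed over gene-end peaks, 5 megakaryocyte markers ran from 1008 to 1157 normalized reads in GFI1-KI and from 708 to 888 in GFI1-KD, and all 5 had such a peak. Of 4 mast cell and basophil markers, Ms4a2 and Fcer1a had no gene-end peak, and the sum of the others ran from 181 to 234 in GFI1-KI and from 120 to 138 in GFI1-KD. Erythroid markers, with Gata1 and Alas2 at no gene-end peak among 6, ran from 1961 to 2119 and from 1738 to 1886. Of 5 B cell markers Ms4a1 had no gene-end peak, and the sum of the other 4 ran from 634 to 663 in GFI1-KI and from 594 to 689 in GFI1-KD. Progenitor markers ran from 7978 to 8535 in GFI1-KI and from 7488 to 7979 in GFI1-KD. Within that sum Cebpa, Mpo, Csf1r, Kit and Cd34 were lower in GFI1-KD, Elane, Prtn3 and Ctsg were higher, and Csf3r and Spi1 were nearly level. The part of these cells in the lower Myb peaks was not tested. In bulk libraries fewer cells of a type and less open DNA per cell cannot be told apart.

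**Figure D4:**
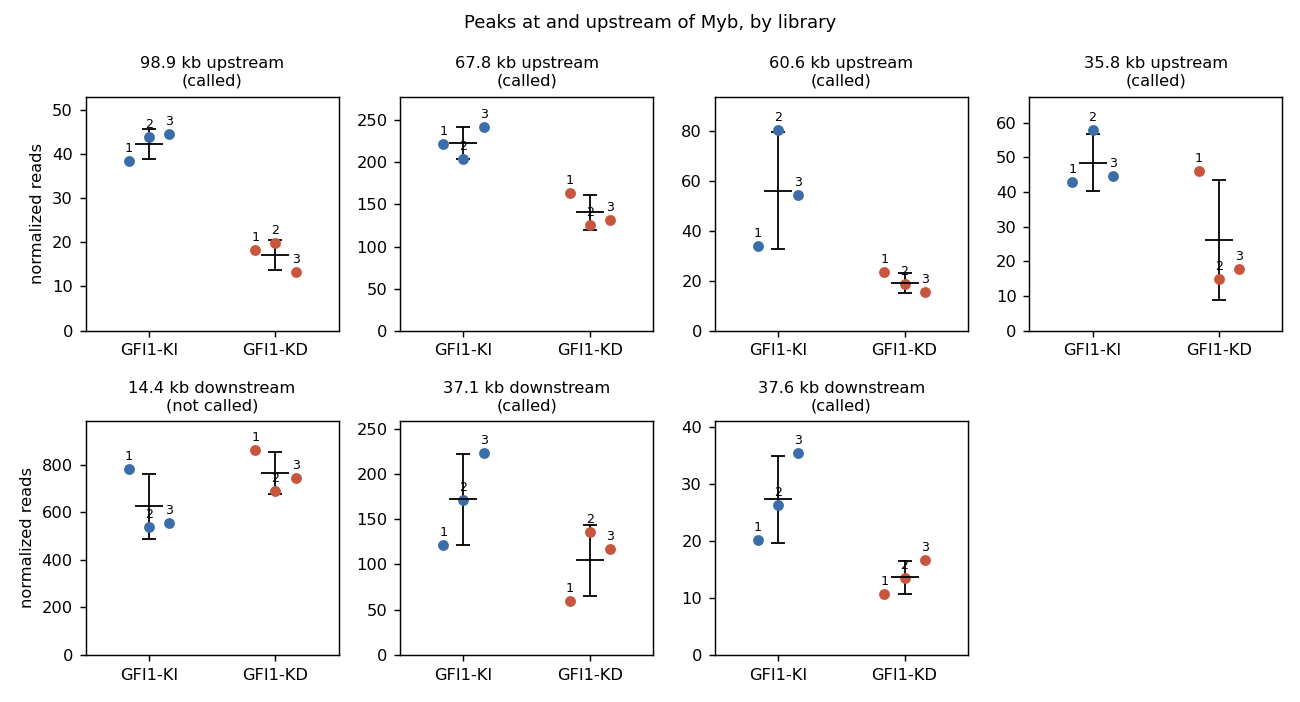
Normalized reads in each library for the 6 called peaks at and upstream of Myb and for the strongest Myb peak, 14.4 kb downstream of the start site, with replicate numbers beside the points and mean ± SD of 3 libraries in black. The axes start at 0, and the GFI1-KD points lie apart from GFI1-KI in the 3 panels furthest upstream but overlap it in the panels at 35.8 kb upstream and at 14.4 and 37.1 kb downstream.

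All 10 Mybl2 peaks lay in its body, on chromosome 2 from 163054327 to 163084688, and the neighbours Ift52 and Gtsf1l are 8.17 and 2.34 kb away. Of the 9 tested 1 was called. It lies 1.29 kb downstream of the start site, from 163055814 to 163056046, and held 91.2, 57.0 and 70.2 normalized reads in KI1, KI2 and KI3, and 100.6, 109.8 and 104.2 in KD1, KD2 and KD3. Every GFI1-KD library was above every GFI1-KI library, KI1 being close to them. The peak rose by 0.55 ± 0.17 (limma adjusted p = 0.0436), and edgeR called it as well (0.02) but not DESeq2 (0.065). Leaving out KI2 ended the call (limma adjusted p = 0.26), as did leaving out KI3 (0.132), KD1 (0.0554), KD2 (0.127) or KD3 (0.107).

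Between this peak and the Mybl2 promoter lay a peak that did not share its difference. It ran from 163055288 to 163055531, with 59.4 ± 18.3 in GFI1-KI against 61.7 ± 12.1 in GFI1-KD (0.08 ± 0.21, limma adjusted p = 0.862). Near the far end of the gene, a peak from 163082614 to 163083010 held 235 ± 13.5 and 219 ± 29.1. The remaining 5 tested peaks of Mybl2 had means from 11.2 to 31.2 and were not called.

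Summed over all its peaks, Myb held 4219, 3933 and 3832 normalized reads in KI1, KI2 and KI3, and 3973, 3810 and 3989 in KD1, KD2 and KD3. The totals overlapped (ratio 0.982, exact permutation p = 0.8, two-sided), and the ratio passed above 1 with other scalings. Mybl2 totalled 1367 ± 58.2 (SD, n = 3) in GFI1-KI against 1311 ± 80.8 in GFI1-KD (exact permutation p = 0.6). Mybl1 totalled 1203 ± 15.4 and 1044 ± 47.0 without overlap (exact permutation p = 0.1, the smallest that 3 against 3 libraries allow). The promoter peak made up 89.7% of the Mybl1 total and 64.9% of that of Mybl2, while the strongest Myb peak made up 17.6% of that of Myb.

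The promoter peak of each family gene was also compared with the strongest gene-end peaks of 13248 other genes. Such a peak may lie at either end of a gene. Patterns over the 6 libraries were compared as Pearson's r on log2 values. Most like Myb were Tbc1d8 (r = 0.9948), Npff (0.9946) and Foxf2 (0.991). Most like Mybl1 were Pmel and Rab5b, which share 1 peak (0.9997), and Hnrnpm (0.9994), and most like Mybl2 were Adm (0.9962), Cycs (0.9939) and Itga4 (0.9937). With 6 libraries from 2 genotypes such values are common: r was above 0.95 for 139 genes with Myb, 1214 with Mybl1 and 401 with Mybl2.

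Genes that work with the family were read from the same fit. Of 201 tested peaks at 13 cofactors and modifiers of MYB, 5 were higher and 10 lower (7.46%, against 10.5% of all tested peaks; median -0.07). Crebbp, one of the acetyltransferases that MYB recruits, had no called peak among 13, and its paralogue Ep300 had 2 higher and 1 lower of 15. The leading Ep300 peak, 40.0 kb from the gene on chromosome 15 from 81545346 to 81546201, held 92.3, 93.8 and 77.0 normalized reads in GFI1-KI against 168.0, 138.2 and 155.2 in GFI1-KD (0.80 ± 0.14, limma adjusted p = 0.0012). Hipk2, a kinase that marks MYB for breakdown, had 3 lower of 34. With median-of-ratios scaling the split of this list was 11 higher and 6 lower, and edgeR gave 13 higher and 7 lower. In place of 15, limma called 4 without KI2, 3 without KI3, 9 without KD2 and 6 without KD3.

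At 13 partners of MYBL2 in the MuvB and DREAM complexes, 2 of 121 tested peaks were higher and 6 lower (6.61%, against 10.5% of all tested peaks; median -0.05), or 6 and 5 with median-of-ratios scaling. Lin54, the subunit that contacts DNA, had 2 higher of 18, Tfdp2 3 lower of 14 and Rbl2, a pocket protein, 2 lower of 9. The leading Rbl2 peak, on chromosome 8 from 91077502 to 91077790 inside the gene, held 96.8, 109.6 and 114.8 in GFI1-KI against 56.7, 43.2 and 46.6 in GFI1-KD (-1.12 ± 0.17, limma adjusted p = 0.000255). Lin9, Lin37, Lin52 and Foxm1 had no called peak among 4, 2, 7 and 1. In place of 8, limma called 4 without KI2, 5 without KI3 and 5 without KD3.

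Of 64 tested peaks at 16 mitotic genes under MYBL2 and FOXM1 control, 1 was called, lower in GFI1-KD (1.56%, against 10.5% of all tested peaks; median -0.07). It lies 11.4 kb from Cenpe, a kinetochore motor gene, and went from 32.9 ± 4.54 to 18.5 ± 1.68 (-0.79 ± 0.24, limma adjusted p = 0.039). This call was lost in DESeq2 and when any library other than KD1 was left out. The other 15 genes, among them Ccnb1, Cdk1, Plk1, Aurka, Birc5 and Top2a, had none.

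At 13 blood progenitor genes known as MYB targets, 13 of 260 tested peaks were higher and 14 lower (10.4%, against 10.5% of all tested peaks; median -0.10), or 15 and 11 with median-of-ratios scaling. The share was near that of all peaks. The list includes Gfi1 itself, the gene replaced in both genotypes, with 3 higher and 2 lower of 13. Flt3, a cytokine receptor, had 3 higher of 26, the leading one inside the gene at 752.1, 671.4 and 583.8 in GFI1-KI against 930.9, 896.0 and 976.8 in GFI1-KD (0.49 ± 0.08, limma adjusted p = 0.000708). Kit, the stem cell factor receptor, had 1 higher and 4 lower of 34, and Myc 1 and 2 of 14. Lmo2, Hoxa9, Elane and Prtn3 had no called peak among 24, 8, 2 and 6. In place of 27, limma called 14 without KI2, 13 without KI3 and 15 without KD3.

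At 9 germline genes under MYBL1, of which Tdrd1 had no tested peak, 1 of 33 peaks was higher and 1 lower (6.06%, against 10.5% of all tested peaks; median 0.02). The higher one, 1.22 kb from Piwil2, a piRNA pathway gene, rose from 35.5 ± 5.35 to 83.9 ± 20.0 (1.21 ± 0.20, limma adjusted p = 0.000582). In place of 2, limma called 1 peak of this list without KI2, KI3, KD2 or KD3.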

How the data were processed

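For each consensus peak the authors deposited a normalized read count per library, a signal on a linear scale. Every value was a whole multiple of its library's step (100% at a tolerance of 0.01 reads), so reads were recovered. Named in the submitters' processing notes are the build mm10 and, without versions, BWA, Trim Galore, Picard, SAMtools, DiffBind, MACS2, HOMER and ChIPseeker. The merging of peaks and any transposase shift of the reads are not described or given in the sources used here. Columns named WT were taken as GFI1-KI, after the series title and the numbers. Chromosome codes were read in alphabetical order. Over the 18 codes where the orders differ, this placed 16% of peaks within 1 kb of a gene end, against 2.62% in numeric order. Genes and promoters came from RefSeq GRCm38.p6.

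Differences of GFI1-KD from GFI1-KI were tested in R 4.3.3 with limma 3.58.1 and its variance trend, after log2(value + 1), over 170733 peaks with a mean of at least 10, with Benjamini-Hochberg adjustment at 0.05. Fold changes are on that scale. Sums per gene were compared by exact permutation. Alternatives were other scalings, a pseudocount of 5, other filters, robust variances, a replicate block, edgeR 4.0.16 and DESeq2 1.42.0 on recovered reads, gene bodies alone, and leaving out each library. The limma fit alone was tested on simulated data of 168570 peaks with the same dispersion for every peak. In these, 100 peaks were changed 2-fold and 100 were changed 4-fold. It recovered 51.1% of 2-fold and 100% of 4-fold changes, with 5 false calls. Far more peaks were called in the real data, so these rates do not give the power of the real comparison.

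Named are called and gene-end family peaks, each gene's strongest peak and that with the smallest p, called peaks of the intervals, and the leading peak of each list. Further peaks were named as neighbours or for their level after their values were seen. The genes and lists were chosen with earlier results of these data known. Figures were made with matplotlib 3.10.9. One marker gene is not reported here.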

Additional observations from a re-analysis of the deposited data

How the results depend on the processing

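The 3 peaks far upstream of Myb were called in all alternatives that tested them, and the 5 family peaks in none of the sets that left out KI2 or KI3. Leaving out 1 library gave 0 to 5 called Myb peaks, 0 to 1 for Mybl1, 0 to 1 for Mybl2 and 0 to 7 for the family, against 3 to 4 for the intervals and 6996 (without KI3) to 22129 (without KI1) of all peaks, with 7245 without KI2 and 10807 without KD3. The list counts then ran from 3 to 20 (cofactors), 4 to 11 (MuvB and DREAM), 13 to 34 (MYB targets), 0 to 1 (mitotic) and 1 to 3 (germline). DESeq2 called 10772 peaks in all, 0 for each family gene and the family, 8 cofactor, 0 mitotic and 1 germline peaks. Peaks with a mean of at least 50 gave 1 for Myb, 3 for the family, 1 for the intervals, 0 mitotic and 1 germline, with fewer peaks tested. Median-of-ratios scaling gave 5 for Myb and 0 for Mybl1, edgeR 0 for Mybl1, and gene bodies alone 0 for Myb. Higher peaks made up 47.7% of all calls with the deposited scaling, 59.7% with median-of-ratios scaling, 58.6% with equal totals, 58.4% in edgeR and 66.6% in DESeq2.

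The log2 ratio of summed Myb signal, -0.0258, became 0.0198 with median-of-ratios scaling, 0.0189 with equal totals, 0.0290 in the gene body and 0.0153 without KI1. It ran from -0.0548 to 0.0153 when 1 library was left out, beside -0.24 to -0.17 for Mybl1 and -0.09 to -0.01 for Mybl2. Family and interval peaks under the naming rule, and others at an unadjusted limma p under 0.05, were followed singly through the alternatives. Of these, the ones that changed sign were uncalled. They were the Mybl1 peak 0.57 kb outside the gene without KI1 (-0.0496, range -0.0496 to 0.153) and the Mybl2 peak beside the promoter. The latter changed sign without KI2 (-0.104) or KD2 (-0.0385), with a range of -0.104 to 0.309. The cause was not tested.

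Replicate numbers did not pair the libraries: same-numbered deviations correlated at -0.0238, -0.0383 and 0.0563. With a replicate block 18940 peaks were called, 4 for Myb, 6 for the family and 0 mitotic, and the strongest Myb peak was called higher (limma adjusted p = 0.0122). The smallest standard errors belong to the strongest peaks, with a median of 0.21 over the family and over all tested peaks.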
